A study of Drosophila melanogaster with 24 samples.

Results

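Control embryos of Drosophila melanogaster collected 16 to 20 h after egg laying were compared with control larvae at 60 h, in 6 of the 24 samples of the series. The members were the 3 samples that the labels name as 16-20 h embryo controls and the 3 named as heterozygous larval controls. All 6 carried the genotype Sima 1/+, so each of them carried 1 mutant copy of sima, which encodes the HIF-1 alpha subunit of Drosophila, a transcription factor that oxygen holds in check. No group was free of a sima mutant allele. The mutants of the series carried Sima 1/20, and 3 mutant samples a stage served as a second set for the same comparison. Control embryos of 8-12 h and 12-16 h, also Sima 1/+ and 3 a stage, gave the levels that preceded the late embryo. The labels call the larval material whole larvae and name the embryonic material only as embryo. Total RNA went into poly(A)-selected, strand-specific Illumina libraries. The series title asks whether sima is required for the larval glycolytic program, and the stage comparison in controls gives the levels that program had before and after hatching.

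Late fly embryos have finished most cell divisions, hold differentiated muscle, nerve and gut, and secrete the cuticle of the first larva before they hatch. The larva then feeds, and its growth comes mostly from cells that copy their DNA without dividing, while imaginal cells and some neural cells divide. A feeding larva digests protein and sugar in the midgut with secreted trypsin-like and chymotrypsin-like enzymes, stores protein from the fat body in the blood as hexamerins, and renews its cuticle at each moult under the steroid hormone ecdysone.

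The embryo and larval values were deposited in 2 tables made separately, and table and stage cannot be told apart. No test was therefore run between them. A gene was called only for a large change, defined as a mean difference of at least 2 in log2(FPKM + 1) with the 3 larval values all above or all below the 3 embryo values, in level and in percentile rank within the sample. FPKM counts fragments relative to gene length and library depth, so levels of different genes can be set side by side. A difference of 2 is about a 4-fold change for a well expressed gene, and the added 1 makes the scale understate the change of a low gene. The comparison covered 10889 gene rows present in both tables, of which 6305 reached an FPKM of 1 in at least 3 of the 6 samples. The embryo table as used here stops partway through the gene list, so genes after that point, such as the proteases alphaTry and Jon25Bi, were not analysed here. Nothing in the labels says that replicates came from separate collections, so their spread may be technical. In samples of whole animals, fewer cells of a type and less RNA per cell cannot be told apart.

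The steps between low FPKM values gave estimated depths of 8.71 to 9.57 M fragments for the embryo controls and 10.3 to 12.7 M for the larval controls. Pearson's r across the genes kept was at least 0.9905 between embryo controls and at least 0.971 between larval controls, and it lay between 0.589 and 0.658 across the stages. Larval replicate 3 stood lower than the other larval samples for digestive enzymes and ribosomal proteins, and its summed FPKM over the shared gene rows was 220 k against 263 k and 268 k. The same sum was higher in the 16-20 h embryo controls, at 298 k, 317 k and 330 k. Markers of adult males were near 0 in both stages: Mst57Dc, a gene of the male accessory gland, was listed at 0 in all 6 samples. Mst84Dc, a sperm-tail gene, had a mean of 0 FPKM in embryos and 0.064 FPKM in larvae. The listed markers of adult females, such as Yp1 and Cp36, were not analysed here.

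Of the 6305 genes, 343 were called higher in larvae (5.44%) and 650 lower (10.3%), so 34.5% of the 993 calls were higher. At any size of difference, the groups lay apart with larvae higher in 32.1% of genes and with larvae lower in 51.8%. The median difference over the genes kept was -0.34, with quartiles at -1.20 and 0.52. Rescaling the shared genes to the same total, centring on the median and quantile normalization brought that median to -0.06, -0.02 and -0.04. The share of calls that were higher became 38.7%, 48.2% and 48.5% under them. The direction of single large differences is therefore described below, and the balance of higher against lower calls depends on the scaling. All counts of list members called stand beside the shares of 5.44% higher and 10.3% lower.

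**Figure D1:**
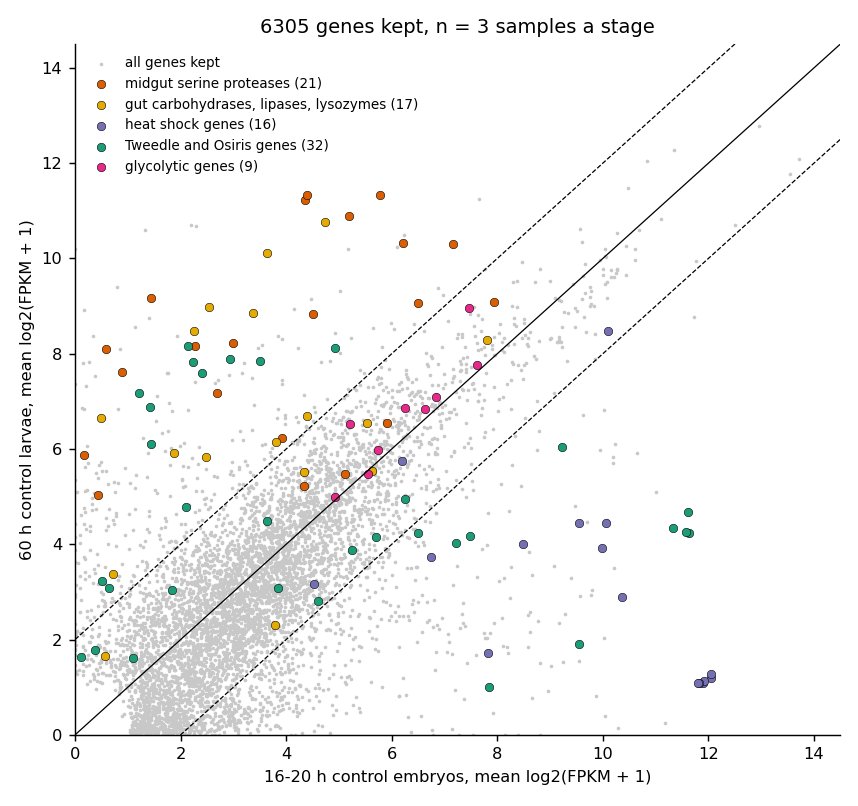
Mean log2(FPKM + 1) in 3 control 16-20 h embryo samples (horizontal) and 3 control 60 h larval samples (vertical) for the 6305 genes kept, 1 point a gene, with members of 5 gene lists in colour. The solid line marks equal levels and the dashed lines a difference of 2. Of the 21 midgut proteases drawn, 17 lie above the upper line and 4 between the lines, and Hsp70 genes lie at the lower right.

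The call fixes that the genes called higher had low values at 16-20 h, and that those called lower had high ones, so their embryo levels are given as a description. For the genes called higher, the median of the mean FPKM was 0.50 at 8-12 h, 0.76 at 12-16 h and 2.26 at 16-20 h, against 41.1 in larvae, and 302 of the 343 (88.0%) were higher in larvae than at every embryo stage, beside 25.7% of all genes kept. For the genes called lower, the medians were 1.09, 6.64 and 17.5 FPKM over the embryo stages and 1.21 in larvae, and 529 of the 650 (81.4%) had their highest embryo mean at 16-20 h, beside 46.3% of all genes kept. For 358 of the 650 (55.1%) the larval mean was below every embryo stage, beside 37.4% of all genes kept. The genes called higher had a median exon length of 1164 bases, those called lower 1745 and all genes kept 1829. In all, 336 of the 343 and 629 of the 650 were protein-coding, as were 6048 of the 6305 kept.

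Most digestive proteases of the midgut were higher in larvae. Of 22 listed trypsin and Jonah protease genes in both tables, 17 were called higher and none lower, with a median difference of 4.55 over all 22 against -0.34 over all genes kept. All 13 Jonah genes (chymotrypsin-like proteases) in both tables were called higher, and 4 of the other 9 members. Jon99Fi stood at 7.02, 26.0 and 42.1 FPKM in the embryo samples and at 3237, 2997 and 1768 FPKM in the larval samples, a difference of 6.94 ± 0.77 (SE). Jon65Ai stood at 0.36, 2.51 and 3.08 FPKM in embryos and at 653, 685 and 417 FPKM in larvae, a difference of 7.73 ± 0.55 (SE). The lowest larval value exceeded the highest embryo value by a wide margin for both genes. Jon66Ci differed by 7.53 ± 0.49 (SE), from 0, 1.22 and 0.50 FPKM to 380, 323 and 168 FPKM.

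Some proteases were already on before hatching. The trypsin-like gene yip7 stood at 232, 238 and 261 FPKM in late embryos and at 622, 649 and 392 FPKM in larvae, and its difference of 1.15 did not reach 2. The trypsin kappaTry stood at 57.0, 56.4 and 63.0 FPKM and then at 97.2, 95.5 and 83.8 FPKM, and etaTry at 33.9, 31.6 and 34.9 FPKM and then at 48.5, 41.6 and 39.8 FPKM. The groups lay apart for all 3 genes but by less than the size set for a call. Inside the embryo table, where a test was possible, kappaTry rose between 8-12 h and 16-20 h by 5.71 on the log2 scale (limma adjusted p = 3.4e-13) and etaTry by 5.02 (limma adjusted p = 9.1e-14). Of 18 listed proteases tested there, 17 rose and none fell, beside 44% of all 6784 genes tested that rose and 39.7% that fell. The 16-20 h control samples enter both comparisons, so the values stand side by side and neither supports the other.

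Enzymes of sugar and fat digestion and the lysozymes of the gut followed with 11 of 19 called higher and none lower, and a median difference of 2.33. LysB, a digestive lysozyme, stood at 8.27, 13.4 and 13.5 FPKM in embryos and at 1476, 1362 and 678 FPKM in larvae, a difference of 6.48 ± 0.42 (SE). Amyrel, an alpha-amylase relative, stood at 0.072, 1.06 and 0.26 FPKM and then at 97.0, 101 and 101 FPKM. Maltases of the Mal-A cluster, which cut small sugars, were less uniform. Mal-A3 stood at 212, 229 and 224 FPKM in embryos and at 321, 318 and 293 FPKM in larvae (difference 0.49 ± 0.05, SE). Mal-A2 stood at 50.9, 47.4 and 47.1 FPKM and then at 45.4, 45.1 and 45.1 FPKM, a difference of -0.10 that changed sign under another scaling. Larval replicate 3 was the lowest larval sample for 15 of the 17 proteases called and for 7 of the 11 other enzymes, against 37.9% of all genes kept. The counts of 17 and 11 were also found without it.

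**Figure D2:**
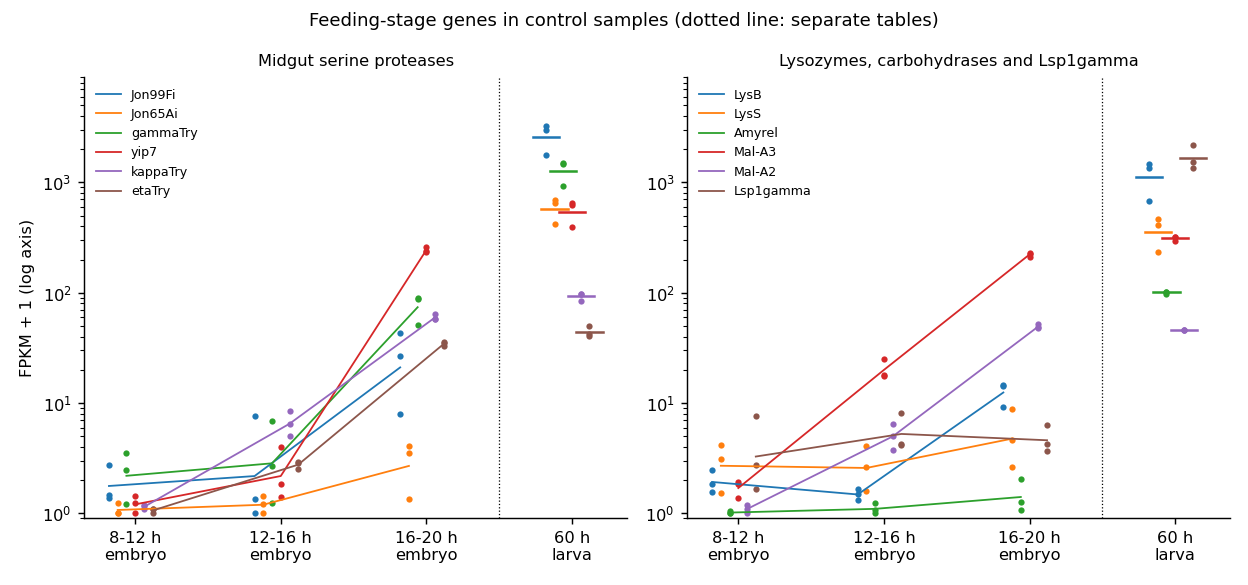
FPKM + 1 (log axis) by stage in control samples for 6 midgut proteases (left) and for lysozymes, carbohydrases and Lsp1gamma (right), 3 points a stage, with lines joining geometric means over the embryo stages and a bar at the larval one. Jon99Fi, Jon65Ai, LysB and Amyrel stand far higher in larvae, while kappaTry, etaTry, Mal-A3 and Mal-A2 had reached a level near that of larvae by 16-20 h.

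Of 8 listed genes of larval serum and fat body, 3 were called higher and 1 lower, with a median difference of 0.0066, and of 168 odorant-binding and chemosensory genes, 22 of which passed the FPKM minimum, 4 were called higher and 4 lower. The lists share odorant-binding genes, Obp99a and Obp99b among them, so these counts overlap. The members named here include the largest differences of both lists. Lsp1gamma, a subunit of a larval serum hexamerin made by the fat body, stood at 2.64, 5.27 and 3.26 FPKM in embryos and at 1345, 1526 and 2195 FPKM in larvae, a difference of 8.49 ± 0.32 (SE). Lsp2, a hexamerin known from later larvae, stayed near 0, with means of 0.029 and 0.19 FPKM, as did Fbp1, a receptor for larval serum protein, with 0.16 and 0.015 FPKM. The odorant-binding protein family gene Obp56a stood at 3.95, 3.62 and 4.12 FPKM and then at 1553, 1605 and 1776 FPKM. Obp99b stood at 0, 1.42 and 0.16 FPKM in embryos and at 31.5, 75.6 and 59.0 FPKM in larvae. CG32198, which is in none of the lists, had the largest difference of all genes called higher, and was listed at 0 in all 3 embryo samples and at 1368, 924 and 1251 FPKM in larvae. It was also near 0 earlier, with means of 0.12 FPKM at 8-12 h and 0.070 FPKM at 12-16 h. Obp44a, the member of the serum and fat body list that was called lower, went from 157, 184 and 209 FPKM to 52.6, 42.5 and 26.3 FPKM.

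The machinery of secretion stood higher as well. All 10 listed genes of the endoplasmic reticulum and the early secretory path lay apart with larvae higher, beside 32.1% of all genes kept. Their median difference was 1.10 (1.21 to 1.44 under the other scalings), but only Pdi passed the size for a call. Pdi, protein disulfide isomerase, stood at 62.8, 62.7 and 60.7 FPKM in embryos and at 394, 388 and 423 FPKM in larvae (difference 2.67 ± 0.04, SE). Sec61beta, a part of the protein-conducting channel, stood at 129, 134 and 138 FPKM and then at 453, 402 and 374 FPKM, and the chaperone Calr at 325, 311 and 301 FPKM and then at 797, 736 and 638 FPKM. Within the embryo course 9 of these 10 genes fell between 8-12 h and 16-20 h, beside 39.7% of all genes tested. Pdi came down by a log2 difference of -2.59 (limma adjusted p = 8.3e-13) from a mean of 380 FPKM at 8-12 h, close to its larval level.

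Of the 11 glutathione transferases of the delta class (GstD genes), which detoxify reactive compounds, 7 were called higher in larvae. Of the other 4, GstD11 (-1.49) and GstD8 (-0.42) differed towards lower and GstD5 (0.46) and GstD10 (1.62) towards higher larval levels. Of 56 listed glutathione and UDP-sugar transferases in both tables, 10 were called higher and 4 lower, beside 5.44% and 10.3% of all genes kept. GstD7 stood at 12.0, 13.5 and 14.7 FPKM in embryos and at 328, 326 and 339 FPKM in larvae, GstD3 at 7.39, 10.8 and 9.81 FPKM and then at 184, 161 and 193 FPKM, and GstD4 at 0.95, 1.73 and 2.16 FPKM and then at 38.5, 40.4 and 47.1 FPKM. GstD1 was the gene just inside the size for a call, with a difference of 2.005, and Uev1A, a ubiquitin-conjugating enzyme variant, the one just outside it, with 1.999. On the lower side CG15126 lay just inside with -2.004, and CG43109, at 3.59, 3.20 and 5.22 FPKM and then at 0, 0.51 and 0.25 FPKM, just outside. GstE4, of another class, went from 18.1, 17.1 and 16.7 FPKM to 0.12, 0.48 and 0.94 FPKM. Of 57 listed cytochrome P450 genes, 49 of which passed the FPKM minimum, 6 were called higher and 4 lower. These counts stand beside 5.44% and 10.3% of all genes kept. Cyp12a4 stood at 11.8, 15.6 and 15.1 FPKM and then at 153, 168 and 199 FPKM, while Cyp4c3 went from 49.3, 48.8 and 54.0 FPKM to 2.63, 2.41 and 2.36 FPKM.

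Among the largest differences towards lower larval levels were those of the heat shock response, whose protein products hold and refold other proteins. Of 18 listed heat shock genes, 13 were called lower and none higher, with a median difference of -5.84. Hsp70Bb stood at 3410, 4348 and 5132 FPKM in the embryo samples and at 2.24, 1.21 and 0.97 FPKM in the larval samples, a difference of -10.78 ± 0.28 (SE). The 6 Hsp70 genes are near-identical copies, and how reads were divided among them is not stated, so each single value is uncertain. The 18 genes together summed to between 23890 and 35180 FPKM in embryos and between 488 and 530 FPKM in larvae. The embryo level was high before the late stage too, with Hsp70Bb at a mean of 794 FPKM at 8-12 h and 805 FPKM at 12-16 h. Hsp26, a small heat shock protein, stood at 926, 1437 and 1687 FPKM and then at 7.23, 7.69 and 4.74 FPKM, and Hsp68 at 844, 1113 and 1282 FPKM and then at 16.1, 24.5 and 22.3 FPKM. Hsp83, the fly's Hsp90, differed less, from 1030, 1178 and 1083 FPKM to 360, 359 and 340 FPKM (difference -1.63 ± 0.06, SE). How the embryos and larvae were collected is not given in the labels, and any part of collection in these values was not tested.

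Other late embryonic genes matched the Hsp70 genes in the size of the difference. EAChm stood at 2354, 2272 and 2290 FPKM in embryos and at 0.37, 0.10 and 0.10 FPKM in larvae, the largest difference of all towards lower larval levels (-10.93 ± 0.11, SE). It had risen from a mean of 0.27 FPKM at 8-12 h through 120 FPKM at 12-16 h (16-20 h minus 8-12 h 10.83 on the log2 scale, limma adjusted p = 1.8e-14). CG12546 stood at 1034, 1398 and 1341 FPKM and then at 0, 0.17 and 0.16 FPKM. CG14453 and CG32453 were listed at 0 in all 3 larval samples after 392, 479 and 470 FPKM and 298, 359 and 350 FPKM in embryos.

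**Figure D3:**
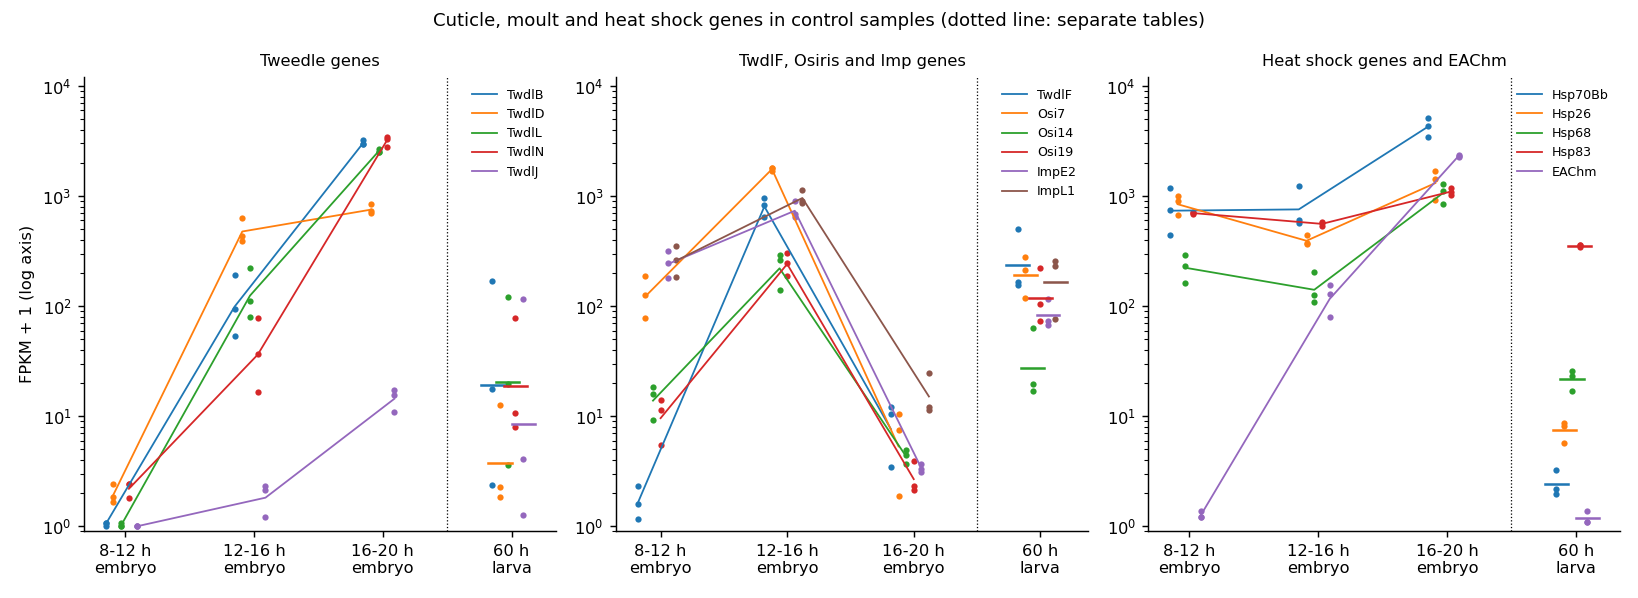
FPKM + 1 (log axis) by stage in control samples for Tweedle genes (left), TwdlF with Osiris and Imp genes (middle) and heat shock genes with EAChm (right), 3 points a stage, with lines joining geometric means over the embryo stages and a bar at the larval one. Osi7, Osi19, ImpE2 and TwdlF were high at 12-16 h, low at 16-20 h and high again in larvae, and TwdlB and TwdlL points spread widely among the 3 larval samples.

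Cuticle genes split into a large set that was lower in larvae and a small one that was higher. Of 87 listed genes for chitin-binding cuticle proteins, 36 were called lower and 9 higher. Cpr62Bc stood at 270, 307 and 311 FPKM in embryos and at 3.34, 2.96 and 1.09 FPKM in larvae, and Cpr92F at 78.6, 81.7 and 83.0 FPKM and then at 0, 0.15 and 0 FPKM. Among the larval cuticle protein genes of the fixed marker list, Lcp4 stood at 35.2, 36.4 and 37.0 FPKM and then at 332, 427 and 235 FPKM, and Lcp2 at 5.11, 3.79 and 4.97 FPKM and then at 29.5, 50.1 and 18.7 FPKM. The most abundant of them were high in both stages: Lcp65Ag1 stood at 13200, 13380 and 13750 FPKM in embryos and at 4300, 5857 and 3237 FPKM in larvae. The summed FPKM of the 87 genes was 46480 to 49490 in embryos and 9600 to 19340 in larvae, with larval replicate 3 the lowest and replicate 2 the highest.

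Tweedle genes encode another family of secreted cuticle proteins, and 10 of the 21 in both tables were called lower in larvae, 4 higher. TwdlB stood at 2956, 2964 and 3226 FPKM in embryos and at 16.7, 166 and 1.36 FPKM in larvae, a difference of -7.31 ± 1.78 (SE). TwdlL stood at 2503, 2530 and 2651 FPKM and then at 18.7, 119 and 2.58 FPKM, and TwdlN at 2772, 3288 and 3453 FPKM and then at 9.66, 77.0 and 6.93 FPKM. The embryo samples lay close together and the larval samples did not: over the 10 genes, the highest larval value was a median of 13.3 times the lowest. TwdlJ was high in 1 larval sample, at 3.11, 116 and 0.26 FPKM after 9.99, 16.3 and 14.7 FPKM in embryos, and its groups overlapped. Without larval replicate 1 the calls over Tweedle and Osiris genes were 11 higher and 13 lower, and without replicate 2 they were 12 and 12, against 12 and 10 with all samples.

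Osiris genes, a clustered insect family of membrane proteins active in cuticle-forming cells, were called only on the higher side, in 8 of the 24 in both tables. All 8 had their highest embryo mean at 12-16 h, and in all 8 larval replicate 1 was the highest larval sample. In none of the 8 did the larval mean stand above every embryo stage. Osi7 had means of 130 and 1752 FPKM at 8-12 h and 12-16 h, stood at 9.56, 0.89 and 6.57 FPKM at 16-20 h and reached 279, 118 and 213 FPKM in larvae (difference 5.18 ± 0.84, SE). Osi19 had means of 9.33 and 245 FPKM, then 1.31, 2.91 and 1.14 FPKM, and then 220, 71.5 and 103 FPKM. TwdlF followed the same course, with a mean of 813 FPKM at 12-16 h, 2.48, 9.49 and 11.1 FPKM at 16-20 h and 502, 166 and 155 FPKM in larvae. Within the embryo table, Osi7 fell from 8-12 h to 16-20 h by 4.53 on the log2 scale (limma adjusted p = 6.3e-07). A comparison with 16-20 h embryos thus showed these genes higher in larvae, and a comparison of the same larval means with those of 12-16 h embryos did not.

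Genes of the ecdysone response were among those with the same course. ImpE2, an ecdysone-inducible gene of imaginal discs, had means of 247 and 741 FPKM at 8-12 h and 12-16 h, stood at 2.69, 2.33 and 2.14 FPKM at 16-20 h and at 115, 66.1 and 71.8 FPKM in larvae (difference 4.61 ± 0.25, SE). ImpL1 had means of 266 and 964 FPKM, then 10.5, 11.2 and 23.5 FPKM, and then 254, 74.9 and 230 FPKM. ImpE3 was low at every embryo stage, at 0.42, 0.62 and 0.57 FPKM at 16-20 h, and stood at 18.4, 19.1 and 21.9 FPKM in larvae. The nuclear receptor gene ftz-f1, which acts after an ecdysone pulse has passed, went from 13.2, 12.8 and 11.8 FPKM to 0.74, 0.36 and 0.36 FPKM. Eip74EF, an ecdysone-induced transcription factor, was the other member called lower, from a mean of 6.30 FPKM to 0.15 FPKM. Of 19 listed genes of the hormone response, 13 of which passed the FPKM minimum, 3 were thus called higher and 2 lower. Over all genes kept 5.44% were called higher and 10.3% lower. The median difference of the 19 was -0.02. Of the enzymes that make ecdysone, sad stood at 0.68, 1.04 and 1.04 FPKM and then at 4.48, 3.63 and 3.83 FPKM, and shd at 0.86, 0.65 and 0.66 FPKM and then at 3.57 to 4.995 FPKM. For both genes the groups lay apart without reaching a difference of 2. None of 8 listed genes, 4 of which passed the FPKM minimum, was called. That count depended on the settings: 2 were called higher with 0.1 added in place of 1, and 2 after rescaling. After quantile normalization 1 was called higher, and after median centring none.

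Genes of nerve cells stood lower in larvae. Of 11 listed neuronal genes in both tables, 6 were called lower and none higher, all 11 differences were below 0, and the median was -2.25 (-3.28 to -1.83 under the other scalings). The synaptic vesicle protein gene nSyb stood at 52.2, 51.1 and 50.0 FPKM in embryos and at 2.92, 2.62 and 3.65 FPKM in larvae, a difference of -3.69 ± 0.11 (SE). Gad1, which makes the transmitter GABA, stood at 19.1, 20.5 and 19.4 FPKM and then at 0.94, 0.83 and 1.05 FPKM, and brp, a protein of the presynaptic active zone, at 9.003, 8.73 and 7.83 FPKM and then at 0.24, 0.26 and 0.34 FPKM. In the embryo table all 10 members tested had risen by 16-20 h, beside 44% of all genes tested. Csp, a vesicle chaperone also used outside nerve, differed by only -0.48 ± 0.03 (SE). Of 4 listed glial genes 1 was called lower: alrm, an astrocyte gene, went from 124, 112 and 120 FPKM to 3.29, 3.02 and 4.94 FPKM.

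Patterning genes of the embryo stood lower in larvae, by less than the size of a call for most. All 20 listed Hox and segmentation genes, 10 of which passed the FPKM minimum, lay apart with larvae lower, beside 51.8% of all genes kept, but none was called and the median was -0.85 (-1.34 to -0.28 under the other scalings). The Hox gene abd-A stood at 6.94, 6.59 and 6.74 FPKM and then at 1.72, 1.80 and 1.86 FPKM. Of 13 listed Notch target genes 5 were called lower, among them E(spl)malpha-BFM, from 6.63, 9.25 and 10.5 FPKM to 0.14, 0.48 and 0 FPKM. That count depended on the scaling, and was 3 after median centring and 1 after quantile normalization. E(spl)m7-HLH, a transcriptional repressor of the same cluster, had already fallen in embryos, by 4.40 on the log2 scale between 8-12 h and 16-20 h (limma adjusted p = 3.0e-11), and stood at 0.099, 0.16 and 0 FPKM in larvae. The pro-apoptotic gene skl and the caspase inhibitor gene Diap1 were the 2 of 12 listed apoptosis genes called lower. Diap1 stood at 34.1, 37.8 and 39.1 FPKM and then at 5.60, 5.17 and 4.74 FPKM.

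**Figure D4:**
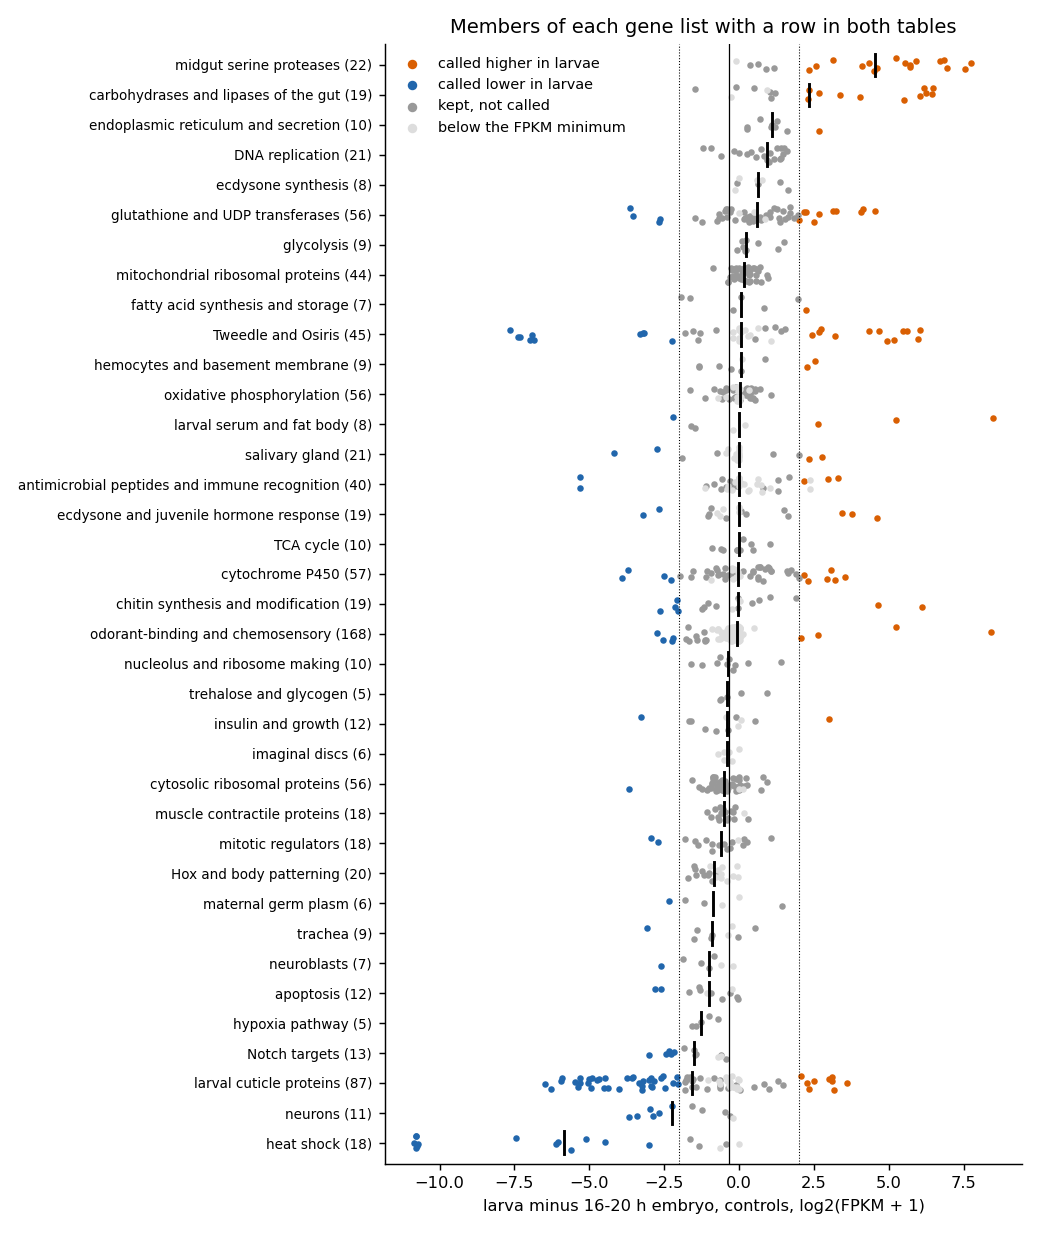
Difference between control larvae and control 16-20 h embryos in log2(FPKM + 1) for every member of each gene list with at least 5 genes in both tables, 1 point a gene, coloured by the call. Thick bars are list medians, the solid line is the median of all genes kept (-0.34) and dotted lines mark differences of -2 and 2. Midgut enzymes lie at the right, heat shock and Tweedle genes reach furthest left, and ribosomal, respiratory and glycolytic genes cluster near the middle.

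Most genes of DNA replication stood higher in larvae, by less than the size of a call. Of 21 listed DNA replication genes, 17 had differences above 0 and 14 lay apart with larvae higher, beside 32.1% of all genes kept. None was called, and the median was 0.93 (1.25 to 1.46 under the other scalings). PCNA, the sliding clamp of DNA polymerase, stood at 14.1, 14.7 and 16.0 FPKM in embryos and at 47.6, 45.0 and 32.7 FPKM in larvae, and RnrS, a ribonucleotide reductase subunit, at 13.1, 12.9 and 14.8 FPKM and then at 43.4, 40.0 and 36.6 FPKM. The clamp loader gene RfC4 went from 3.80, 4.73 and 3.10 FPKM to 12.7, 14.7 and 14.1 FPKM. The mitotic regulators stayed near all genes kept: of 18 listed genes 2 were called lower, 12 lay apart with larvae lower, and the median was -0.59 (-0.49 to -0.05 under the other scalings), beside 10.3% and 51.8% of all genes kept and their median of -0.34. CycB, a mitotic cyclin, stood at 30.0, 22.9 and 16.6 FPKM and then at 2.70, 2.29 and 2.79 FPKM, and CycB3 at 20.3, 16.6 and 11.8 FPKM and then at 1.32, 1.07 and 1.25 FPKM. The mitotic phosphatase gene stg stood at 9.97, 9.36 and 8.91 FPKM and then at 1.71, 2.32 and 1.90 FPKM. In the embryo table all 21 replication genes and all 18 mitotic genes fell between 8-12 h and 16-20 h, beside 39.7% of all genes tested. In contrast, 14 of the 21 and 2 of the 18 lay apart with larvae higher than late embryos.

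None of the 9 glycolytic genes in both tables was called, in larvae against late embryos, and their median difference was 0.23 (0.19 to 0.57 under the other scalings). Hex-A, Gapdh2, Pgk and Eno were not analysed here. Gapdh1 stood at 159, 178 and 190 FPKM in embryos and at 537, 536 and 425 FPKM in larvae (difference 1.499 ± 0.14, SE), and PyK, pyruvate kinase, at 32.7, 38.1 and 37.5 FPKM and then at 93.5, 96.9 and 82.6 FPKM (1.31 ± 0.10, SE). For both genes the groups lay apart. Pfk, phosphofructokinase, stood at 28.2, 29.1 and 30.5 FPKM and then at 31.4, 30.3 and 31.3 FPKM, and Hex-C, a hexokinase, at 45.9, 46.7 and 45.2 FPKM and then at 43.5, 47.5 and 39.5 FPKM, with overlapping groups for both. Ldh, lactate dehydrogenase, stood at 48.3, 54.0 and 55.5 FPKM and then at 68.0, 66.8 and 51.8 FPKM, also with overlap. Tpi, triose phosphate isomerase, stood at 65.3, 76.2 and 85.7 FPKM and then at 154, 128 and 78.5 FPKM, with larval replicate 3 inside the embryo range. All 9 genes had risen between 8-12 h and 16-20 h in the embryo table, beside 44% of all genes tested. There Gapdh1 went from a mean of 7.54 FPKM to 175 FPKM (4.37 on the log2 scale, limma adjusted p = 7.5e-12) and Pfk from 3.73 FPKM to 29.3 FPKM (2.68, limma adjusted p = 6.4e-13).

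The genes of the hypoxia pathway were lower in larvae without reaching the size of a call. All 5 lay apart with larvae lower, beside 51.8% of all genes kept, with a median difference of -1.29 (-1.19 to -0.81 under the other scalings). The gene sima itself (FBgn0266411, chromosome arm 3R) stood at 4.25, 4.38 and 4.10 FPKM in embryos and at 1.56, 1.64 and 1.63 FPKM in larvae, a difference of -1.01 ± 0.03 (SE). These are levels in animals with 1 mutant copy, and whether transcripts of the mutant allele are counted is not stated. The partner of its product, encoded by tgo, stood at 22.1, 20.6 and 19.4 FPKM and then at 7.61, 7.14 and 6.45 FPKM. Hph, the prolyl hydroxylase that marks the sima product for destruction when oxygen is present, stood at 4.40, 6.14 and 6.36 FPKM and then at 1.66, 1.67 and 1.74 FPKM. The nuclear receptor gene ERR, which in the fly drives glycolytic genes, went from 12.7, 11.9 and 13.3 FPKM to 3.32, 3.62 and 3.84 FPKM.

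**Figure D5:**
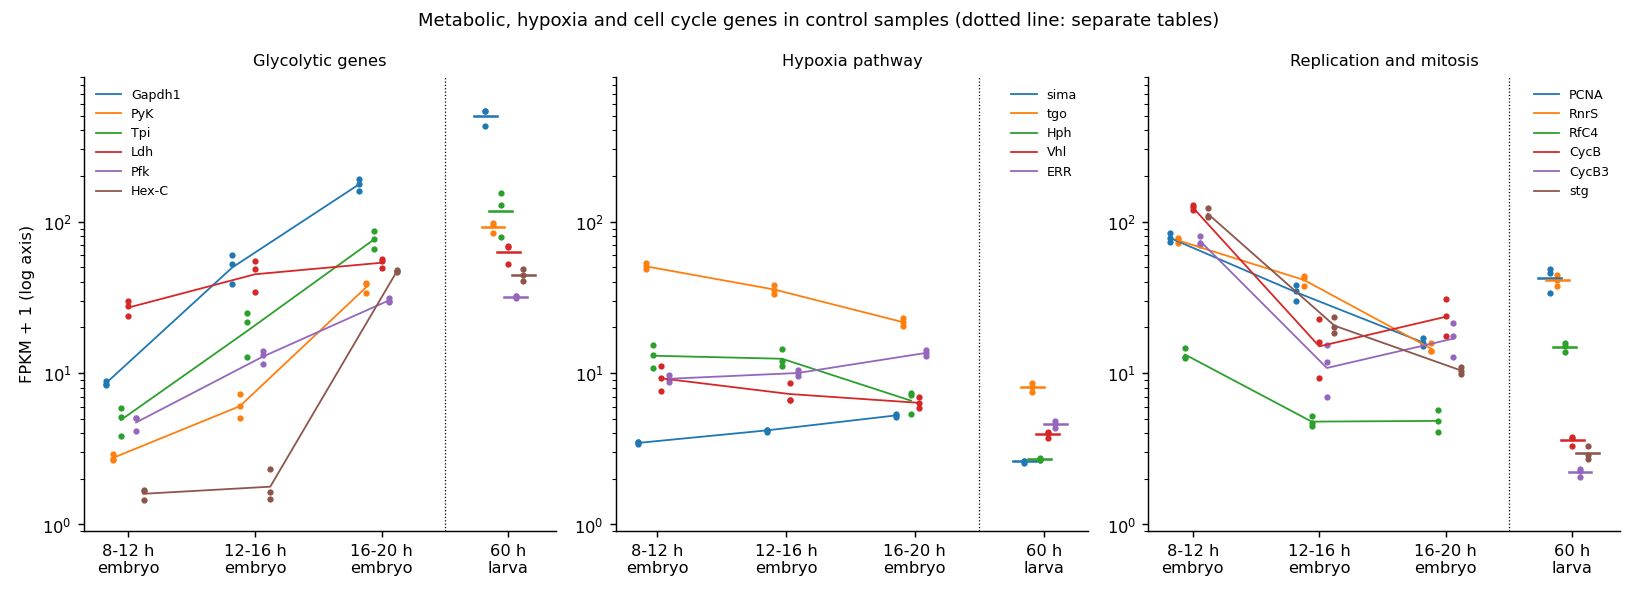
FPKM + 1 (log axis) by stage in control samples for 6 glycolytic genes (left), 5 genes of the hypoxia pathway (middle) and 6 genes of DNA replication and mitosis (right), 3 points a stage, with lines joining geometric means over the embryo stages and a bar at the larval one. Gapdh1 and PyK stand above their 16-20 h level in larvae, Pfk, Hex-C and Ldh near it, the hypoxia genes below it, and PCNA, RnrS and RfC4 part from CycB, CycB3 and stg.

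Few genes of respiration, the TCA cycle, muscle and ribosomes reached the size of a call. Of 56 listed genes of oxidative phosphorylation, 42 of which passed the FPKM minimum, none was called, with a median difference of 0.02 over the 56. Of 10 TCA cycle genes none was called, with a median of -0.02. Mdh2, mitochondrial malate dehydrogenase, was the TCA gene with the largest difference, from 145, 164 and 169 FPKM to 380, 362 and 252 FPKM. Of 18 listed muscle contractile genes none was called, but 16 lay apart with larvae lower, beside 51.8% of all genes kept. Their median was -0.51 (-0.19 to -0.18 under the other scalings). Of 56 cytosolic ribosomal protein genes 1 was called lower: RpS5b, a paralogue used in germ cells, went from 34.2, 36.5 and 39.2 FPKM to 2.84, 2.57 and 0.90 FPKM. Larval replicate 3 was low for this list, with a summed FPKM of 29590 against 38970 and 40490 in the other larval samples and 40880 to 45880 in embryos, and RpL8 stood at 540, 416 and 191 FPKM in larvae. Of 7 listed genes of fatty acid synthesis and storage 1 was called higher, with differences from -1.96 to 2.23 and a median of 0.07. ATPCL, which makes acetyl-CoA for fatty acids, stood at 18.4, 16.8 and 17.0 FPKM and then at 66.6, 68.1 and 79.7 FPKM, a difference of 1.97, and Lsd-1, a lipid droplet protein, was the gene called, at 2.23 ± 0.12 (SE). The fat lipase gene bmm went from 11.5, 12.7 and 15.2 FPKM to 2.11, 3.65 and 2.30 FPKM, a difference of -1.96.

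The same rule was applied to the sima mutants, whose libraries are not those of the controls. Table and stage cannot be told apart in the mutants either, so a difference between the tables would appear in both genotypes. Of 6244 genes kept there, 319 were called higher in larvae (5.11%) and 631 lower (10.1%), and at any size the groups lay apart with larvae higher in 28.7% and lower in 52.4%. Of the 343 genes called higher in controls, 254 (74.1%) were called so in mutants, which is 79.6% of the 319 called there. Of the 650 called lower, 497 (76.5%) were called so in mutants, 78.8% of the 631. No gene called in controls had the opposite call in mutants. All 17 proteases and all 11 other gut enzymes called in controls were called in mutants, as were the 13 heat shock genes. None of the 8 Osiris genes was: Osi7 had means of 21.3 FPKM in mutant embryos and 57.7 FPKM in mutant larvae, and Osi19 12.1 and 37.4 FPKM. The mutant larval samples spread widely, at 5.3, 119 and 48.6 FPKM for Osi7 and at 0.67, 101 and 10.6 FPKM for Osi19. For neither gene did the mutant groups lie apart. For the Hsp70 genes the mutant larvae were higher than control larvae, with Hsp70Bb at a mean of 67.2 FPKM, a genotype difference that was not tested. Gapdh1 had means of 26.6 and 142 FPKM in mutants (difference 2.37) and PyK 10.8 and 60.6 FPKM (2.39), and both were called there. Pfk had means of 8.56 and 4.14 FPKM. Whether the stage difference itself differed between the genotypes was not tested.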

How the data were processed

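RNA sequencing values came from 2 tables of FPKM that the authors deposited, 1 for 18 embryo samples and 1 for 6 larval samples, with replicates not pooled. The submitters' processing notes name featureCounts, DESeq2 and the build BDGP6, with no role or version; the FPKM denominator and strand setting are not given in the sources used here. The embryo table held 14336 complete rows, the first of the 24278 rows of the larval table in the same order, and 10889 of them were FlyBase genes, 10865 with a symbol in Ensembl release 115. Feature lengths were checked for 1605 genes, those whose lowest embryo value was 1 fragment by the reference exon length. Of their 2366 larval values under 10 fragments, 99.8% were whole multiples of 1 fragment with the same lengths (tolerance 0.01). Feature lengths were thus shared for these genes, and the other genes were not checked. Differences were means of log2(FPKM + 1), with the SE from the spread within groups. Inside the embryo table, all 18 samples entered 1 linear model with 6 group means (limma 3.58.1, R 4.3.3; variances moderated towards a trend on the mean level), with Benjamini-Hochberg adjustment over 6784 genes and a threshold of 0.05. Both steps were run on simulated data with planted changes. Those data held no shift between the tables, so they cannot show how such a shift would alter the calls. Replicate pairs differed by more than sampling noise (chi-square per gene at least 3.34), so none was merged.

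The gene lists and tests were chosen with earlier results of these data known. Named genes are the 12 largest differences in each direction, up to 4 largest and 2 smallest in each list, the 8 most abundant genes of each stage, the hypoxia list, the fixed markers and the genes at the threshold; yip7, the uncalled GstD genes, Hsp26, Hsp68, Eip74EF and the neighbouring genes in the closing section were chosen after their values were seen. Alternatives were a pseudocount of 0.1, no filter, a minimum FPKM of 5, 3 scalings, minimum differences of 1 and 3, and each replicate left out, and for limma also no trend, a replicate block and a fit to 6 samples.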

Additional observations from a re-analysis of the deposited data

Results flagged for a closer look

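For 5 named genes the larval values lay all on one side of the late embryo values in controls and all on the other side in sima mutants. The share of such genes among all genes kept was not computed, so the count has no background. In controls the groups lay apart, at any size, for 83.9% of all genes kept. The difference between the genotypes was not tested. Obp99a, an odorant-binding protein family gene, differed by 2.64 in controls (mean 88.9 FPKM in embryos and 568 FPKM in larvae) and by -0.36 in mutants (169 and 134 FPKM). Pepck2, a phosphoenolpyruvate carboxykinase gene, differed by 1.12 in controls (2.30 and 6.18 FPKM) and by -0.46 in mutants (3.63 and 2.36 FPKM). TwdlT, a cuticle gene, differed by 0.86 in controls (11.4 and 23.6 FPKM) and by -2.69 in mutants (29.1 and 8.40 FPKM). Bub3, a mitotic checkpoint gene, differed by 0.26 in controls (14.6 and 17.6 FPKM) and by -0.58 in mutants (29.8 and 19.4 FPKM). Obp83cd differed by -0.37 in controls (79.8 and 61.4 FPKM) and by 0.34 in mutants (56.4 and 71.7 FPKM). Only Obp99a was called in controls, and none of the 5 was called in mutants.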

How the results depend on the processing

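In controls the count of genes called higher (343) was 559 after rescaling, 972 at a minimum difference of 1 and 185 at 3, and the count called lower (650) was 1160 with a pseudocount of 0.1, 1871 at a minimum difference of 1 and 265 at 3. In mutants the count called higher (319) was 480, 865 and 173 under the first 3 of these, and the count called lower (631) was 1138 with the pseudocount of 0.1, 379 after median centring, 386 after quantile normalization, 1948 at a minimum difference of 1 and 230 at 3. Leaving out 1 replicate at a time gave 338 to 357 higher and 638 to 667 lower in controls, 299 to 337 and 614 to 660 in mutants, and 2874 to 2915 that rose and 2578 to 2627 that fell in the embryo course. The embryo course had 2982 and 2690, and 2293 and 3582 after quantile normalization. With the replicate block it had 2960 and 2679; samples with the same number did not deviate together (correlations -0.061, 0.017 and 0.0064), so they share only a number. Between 16-20 h and 8-12 h, the sign of these genes turned after quantile normalization: Hsp83 (-0.17), Diap2 (-0.23), COX6AL (-0.031), sima (-0.057), ana (-0.25), Hsp110 (-0.74), RpS25 (-0.39), RpS20 (-0.75), Sar1 (-0.78), RpL41 (-1.75), GstD4 (-0.57) and nol (-0.43). After median centring it turned for Diap2 (-0.27), Hsp110 (-0.34), RpS20 (-0.076), Sar1 (-0.33) and glob1 (-0.28). The cause was not tested. Precision is limited by 3 samples a group, by the smallest FPKM of low genes, and by the separate tables.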

Other observations

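Some genes called in the same direction lay side by side on the chromosome, and 76 of the 993 called genes (7.65%) lay in runs of at least 4; the number that chance gives was not computed. The gene rows of both tables were put in genome order, which skips genes not analysed here and lets a gene below the FPKM minimum end a run. In that order, 16 runs of at least 4 adjacent genes were called the same way, 3 of them higher in larvae (14 genes) and 13 lower (62 genes). The lysozyme genes LysB, LysC, LysD and LysE (chromosome arm 3L, 1207371 to 1213406, BDGP6) had embryo means from 4.81 to 26.2 FPKM and larval means from 502 to 1845 FPKM. The 4 Jonah genes Jon65Ai to Jon65Aiv (3L, 6039155 to 6054443) had embryo means from 0.86 to 143 FPKM and larval means from 198 to 1334 FPKM. On the lower side, 7 genes from CG33490 to CG33269 (3L, 11572797 to 11582197) had embryo means from 15.0 to 495 FPKM and larval means from 0 to 3.45 FPKM. The Tweedle genes TwdlM, TwdlP, TwdlB and TwdlL (3R, 26619118 to 26625652) had embryo means from 596 to 3122 FPKM and larval means from 46.2 to 74.0 FPKM, and 5 cuticle genes from Ccp84Ag to Ccp84Ac (3R, 6686728 to 6696271) had embryo means from 19.1 to 300 FPKM and larval means from 5.14 to 12.0 FPKM. Neighbouring copies can share reads, so members of a run are not independent.

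Blood cell, immune and insulin genes gave smaller counts. The hemocyte gene Hml stood at 2.22, 2.69 and 2.42 FPKM in embryos and at 12.9, 16.6 and 17.7 FPKM in larvae, and PPO1, a prophenoloxidase of crystal cells, at 11.5, 6.94 and 7.02 FPKM and then at 60.6, 51.2 and 47.5 FPKM. They were the 2 of 9 listed hemocyte and basement membrane genes called, while the basement membrane genes SPARC and Ndg had differences of -1.33 each. Of 40 listed immune genes, 18 of which passed the FPKM minimum, 3 were called higher and 2 lower. Over all genes kept the shares were 5.44% and 10.3%. PGRP-SC2, an amidase that degrades peptidoglycan, stood at 1.08, 2.74 and 1.401 FPKM and then at 39.1, 29.8 and 13.4 FPKM. BaraA1, a precursor of immune peptides, went from 73.8, 63.5 and 70.8 FPKM to 0.22, 0.24 and 2.68 FPKM, and its near-identical neighbour BaraA2 cannot be told apart from it. Of 12 listed insulin and growth genes, 1 was called higher and 1 lower, and both encode insulin-like peptides. Ilp5 stood at 0, 0 and 0.19 FPKM and then at 8.69, 7.51 and 6.43 FPKM, and Ilp4 went from 7.17, 10.1 and 9.91 FPKM to 0, 0.094 and 0 FPKM. Of 19 listed genes of chitin synthesis and modification, 2 were called higher and 4 lower. The chitinase genes Cht4 and Cht9 were called higher, Cht4 from 0.34, 0.47 and 0.61 FPKM to 100.1, 92.6 and 104 FPKM, while Cht5 went from 95.5, 102 and 95.3 FPKM to 21.2, 18.8 and 25.1 FPKM.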
